A study of Mus musculus with 16 samples.

Results

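P4hb, P3h3, Serpinh1 and Xbp1 are 4 genes of protein folding in the endoplasmic reticulum (ER), taken by name from a liver panel of 760 genes. All 4 lay among the 612 genes that were abundant enough to test, with a mean normalised count of at least 20. They were selected on their measured levels: each was lower in livers of EVT0185-treated mice than in livers of Vehicle-treated mice, so that contrast is given for them as a description, with no test. What the choice did not use is how the 4 genes varied among animals of the same group. That variation was tested, and the question was whether P4hb varied with the collagen-specific P3h3 and Serpinh1 or with the ER regulator Xbp1.

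Collagen chains are made on the rough ER, where prolines are hydroxylated, disulfide bonds are formed and a dedicated chaperone binds the folded triple helix before it leaves for secretion. Serpinh1 (HSP47) is that chaperone, and P3h3 belongs to the prolyl 3-hydroxylases that modify collagen. P4hb is shared between pathways. It forms disulfide bonds in many secreted proteins, is a subunit of the collagen prolyl 4-hydroxylase, and is a subunit of the microsomal triglyceride transfer protein that loads lipid onto apolipoprotein B. Xbp1 is a transcription factor of the unfolded protein response, in which the ER sensor Ern1 splices its mRNA. In the liver, collagen comes mainly from stellate cells, while hepatocytes carry the larger secretory load of plasma proteins and lipoproteins.

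The 8 EVT0185 animals received EVT0185 at 100 mg/kg by gavage, and the 8 Vehicle animals received the vehicle, CMC at 1.5% with Tween-20 at 0.2%. Animals of both groups were male C57BL/6J mice housed at 29 °C, which is thermoneutral for mice, and both were fed a diet in which fat, mainly from palm oil, gave 40 kcal% and fructose 20 kcal%, with cholesterol at 0.02%. The labels name the model MASH, which stands for metabolic dysfunction-associated steatohepatitis, a fatty liver disease that can lead to scarring. Neither group was lean or untreated, and neither the age of the mice nor the length of dosing is given in the sources used here. Each sample is the RNA of 1 liver, counted on the nCounter Fibrosis Panel, in which a pair of probes binds each RNA and a fluorescent barcode is counted without amplification.

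The total count per sample was 1462994 to 1850800. Over all tested genes the median log2 difference, EVT0185 minus Vehicle, was -0.10, and limma called 200 of the 612 genes (32.7%) at an adjusted p under 0.05, 132 lower (21.6%) and 68 higher (11.1%). The summed normalised count of the hepatocyte markers on the panel (Cyp2e1, Pck1, Fbp1) was 55336 to 80978 in EVT0185 livers, against 57389 to 99694 in Vehicle livers, and 2 of the 3 were called lower in EVT0185 livers. Of the 10 stellate cell and myofibroblast markers, all tested, 5 were called lower, with a sum of 1404 to 2448 in EVT0185 livers, against 1997 to 3770 in Vehicle livers. Of the 5 macrophage markers, 2 were also called lower (sum 897 to 1241 in EVT0185 livers, against 757 to 2693 in Vehicle livers), and none of the 6 endothelial markers was called. The part of these cell types in the results on the 4 genes was not tested. In whole liver, fewer cells of a type and less RNA per cell cannot be told apart. Each probe pair has its own efficiency, so levels are compared between samples and not between genes.

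The promoter windows of P4hb and Serpinh1 are shown because these genes stand for the shared and the collagen-specific machinery. They come from RefSeq on assembly GRCm38.p6, which matched all 4 genes, and run from 250 bases before the annotated start to 50 bases after it. The P4hb window is chr11:120573204-120573503 and the Serpinh1 window is chr7:99353190-99353489, both on the minus strand. Sequences are written 5′ to 3′, with every CCAAT and CCACG on the strand shown in capitals.
P4hb: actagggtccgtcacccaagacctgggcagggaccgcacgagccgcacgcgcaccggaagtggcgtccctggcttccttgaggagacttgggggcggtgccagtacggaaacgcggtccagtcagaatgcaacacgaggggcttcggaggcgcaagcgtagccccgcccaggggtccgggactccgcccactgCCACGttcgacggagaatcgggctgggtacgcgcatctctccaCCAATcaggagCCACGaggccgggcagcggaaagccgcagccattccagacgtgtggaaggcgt
Serpinh1: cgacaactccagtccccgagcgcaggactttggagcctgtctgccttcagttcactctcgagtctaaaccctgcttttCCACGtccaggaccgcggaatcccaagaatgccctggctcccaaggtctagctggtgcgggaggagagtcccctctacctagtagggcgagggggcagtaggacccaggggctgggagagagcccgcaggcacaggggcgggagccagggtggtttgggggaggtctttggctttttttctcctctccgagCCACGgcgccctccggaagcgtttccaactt

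The ER stress response element (ERSE) of unfolded protein response genes joins CCAAT and CCACG across 9 bases. The P4hb window held a CCAAT at bases 237 to 241 and a CCACG at bases 248 to 252, counted from the first base of the window, with 6 bases between them and so without an exact ERSE. A further CCACG lay at bases 194 to 198. The Serpinh1 window held CCACG at bases 79 to 83 and 270 to 274 and no CCAAT. The windows of P3h3 and Xbp1 held neither. Searched on both strands, CCAAT was present in 37.4% and CCACG in 32.8% of the 32851 promoter windows of the RefSeq table, and the exact ERSE, which contains both, in 0.119%. The exact ERSE, ERSE-II (in 0.0365% of windows), the Xbp1-type element TGACGTGG (0.676%, CCACG on its other strand overlapping it) and the heat shock element GAANNTTC (7.86%) were in none of the 4 windows.

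All 4 genes had lower group means in EVT0185 livers, and P4hb alone had groups that did not overlap, which held for 2.29% of all tested genes in the lower direction and for 6.86% in either direction. The normalised count of P4hb was 7659 at the lowest, 8186 at the median and 8851 at the highest in EVT0185 livers, against 12573, 14404 and 17478 in Vehicle livers. Every EVT0185 liver lay below every Vehicle liver. The means were 8146 ± 424.5 in EVT0185 and 14655 ± 1658 in Vehicle livers (SD, n = 8 each), a log2 difference of -0.84 (SE 0.071), or 1.79-fold lower.

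Serpinh1 had a lowest, median and highest normalised count of 139.5, 199 and 275 in EVT0185 livers, against 219, 276 and 352 in Vehicle livers. In 6 of the 8 EVT0185 livers the level was below every Vehicle liver, and the groups overlapped through the others. The means were 200.1 ± 39.4 in EVT0185 and 274 ± 45.3 in Vehicle livers (SD, n = 8 each), a log2 difference of -0.46 (SE 0.13).

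P3h3 was counted at the lowest level of the 4, with 23 to 50 recovered counts in EVT0185 and 45 to 78 in Vehicle livers. Its normalised count was 24.7, 39.8 and 48.2 (lowest, median, highest) in EVT0185 livers, against 48.2, 52.8 and 77.1 in Vehicle livers. The highest EVT0185 liver, at 48.2335, lay just above the lowest Vehicle liver, at 48.2221, and the other 7 EVT0185 livers lay below all Vehicle livers. The log2 difference was -0.63 (SE 0.15), with means of 36.9 ± 8.95 in EVT0185 and 56.4 ± 9.82 in Vehicle livers (SD, n = 8 each).

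Xbp1, which has 1 row in the table, so that its spliced and unspliced forms are not given apart, had 1383, 1704 and 2159 normalised counts (lowest, median, highest) in EVT0185 livers, against 1789.7, 2282 and 2858 in Vehicle livers. One EVT0185 liver, replicate 4, stood within the Vehicle range, and the other 7 lay below it. The means were 1711 ± 219 in EVT0185 and 2249 ± 339 in Vehicle livers (SD, n = 8 each), a log2 difference of -0.39 (SE 0.098).

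**Figure D1:**
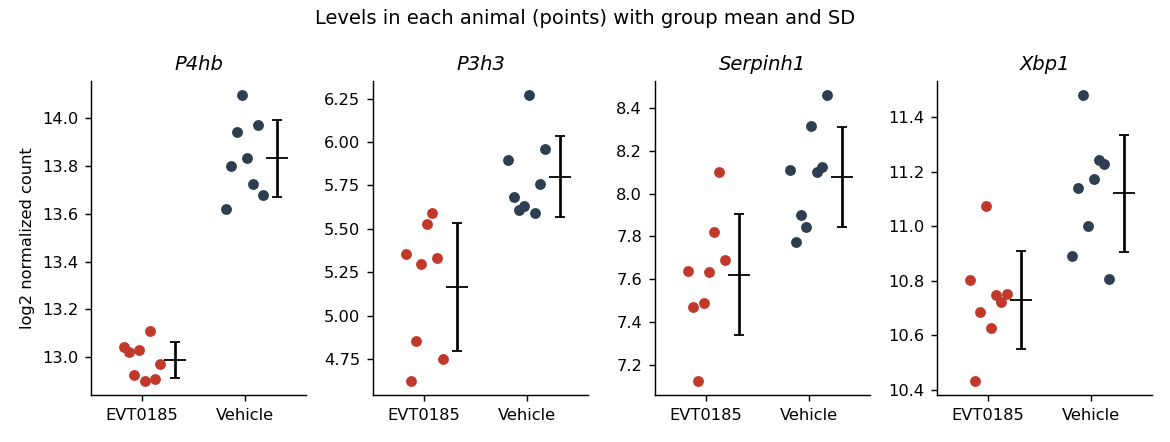
Log2 normalised counts (y axis) of P4hb, P3h3, Serpinh1 and Xbp1 in each liver, EVT0185 left and Vehicle right, with 1 point per animal and the mean ± SD of the 8 animals. P4hb separates the groups fully, at 12.90 to 13.11 in EVT0185 and 13.62 to 14.09 in Vehicle livers, while the other 3 genes overlap through 1 or 2 EVT0185 livers.

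In the fit over all tested genes the 4 members were among the 132 called lower (21.6% of genes), a count fixed by how they were chosen. They differed in size of change. Per animal, the log2 ratio of P4hb to Xbp1 was 2.26 ± 0.18 in EVT0185 livers and 2.71 ± 0.21 in Vehicle livers (SD, n = 8 each), a difference of -0.45 (SE 0.096), and 7 of 8 EVT0185 livers lay below all Vehicle livers. The ratio of P4hb to Serpinh1 was 5.37 ± 0.29 in EVT0185 and 5.75 ± 0.34 in Vehicle livers (difference -0.38, SE 0.16), and that of P4hb to P3h3 was 7.82 ± 0.37 in EVT0185 and 8.03 ± 0.32 in Vehicle livers (difference -0.21, SE 0.17). The log2 ratio of Xbp1 to Serpinh1 differed by 0.069 (SE 0.18). These ratios compare how far each gene differed between groups and use the contrast that chose the genes, so they carry no test.

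Among animals of a group, P4hb was the least variable of the 4 on the deposited scale. Its SD on the log2 scale was 0.075 in EVT0185 and 0.16 in Vehicle livers, against a median over all tested genes of 0.21 in EVT0185 and 0.27 in Vehicle livers. In EVT0185 livers 22 of the 612 genes (3.59%) had a smaller SD than P4hb, and in Vehicle livers 96 (15.7%) had. The SD of Serpinh1 was 0.28 in EVT0185 and 0.23 in Vehicle livers, and that of Xbp1 was 0.18 in EVT0185 and 0.22 in Vehicle livers. P3h3 had an SD of 0.37 in EVT0185 and 0.23 in Vehicle livers. The place of P4hb varied with the scaling. With median centring limma's SE of the treatment difference was 0.109 for P4hb and 0.101 for Xbp1, and with quantile normalization 0.058 and 0.076.

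Counting error limits what covariation can be seen. For P3h3 the expected counting SD was 0.25 in EVT0185 and 0.19 in Vehicle livers on the log2 scale, which is 44.3% of the variance seen in EVT0185 and 69.2% of that in Vehicle livers. For Serpinh1 it made up 13.5% of the variance in EVT0185 and 14.0% in Vehicle livers, and for P4hb 4.61% in EVT0185 and 0.541% in Vehicle livers. The whole spread of P4hb among EVT0185 livers was 0.21 on the log2 scale, against 0.48 among Vehicle livers.

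Across animals within a group, P4hb did not show a relation past the test with any of the other 3 genes. In EVT0185 livers its log2 level correlated with Xbp1 at r = 0.24 (exact permutation p = 0.601, rho 0.55 with p = 0.171, n = 8), with Serpinh1 at r = 0.034 (exact permutation p = 0.943, rho 0.095 with p = 0.840) and with P3h3 at r = 0.16 (exact permutation p = 0.70, rho 0.17 with p = 0.703). In Vehicle livers r was 0.44 with Xbp1 (exact permutation p = 0.281, rho 0.43 with p = 0.299, n = 8), -0.50 with Serpinh1 (exact permutation p = 0.203, rho -0.33 with p = 0.428) and -0.34 with P3h3 (exact permutation p = 0.419, rho -0.29 with p = 0.501). Without the 2 animals farthest from their group's median of P4hb, the EVT0185 values were 0.20 for Xbp1, -0.20 for Serpinh1 and 0.070 for P3h3, and the Vehicle values were 0.72, -0.43 and -0.17. After Benjamini-Hochberg adjustment over 12 relations, which are the 6 pairs in each group, no p was below 0.478.

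**Figure D2:**
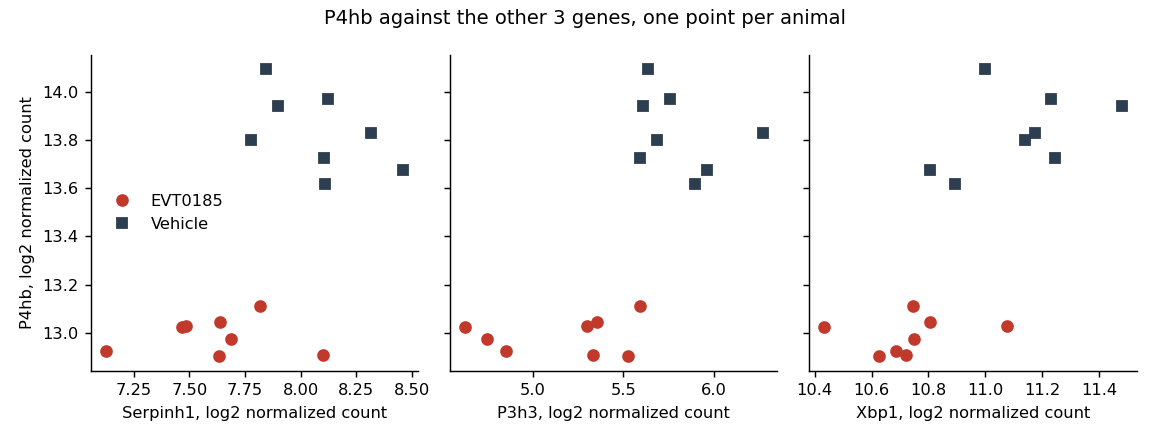
Log2 normalised level of P4hb (y axis) against that of Serpinh1, P3h3 and Xbp1 (x axes), 1 point per liver, for 8 EVT0185 and 8 Vehicle animals. The 2 groups form separate clouds in height, and within the Vehicle cloud P4hb slopes down with Serpinh1 (r = -0.50) and up with Xbp1 (r = 0.44), neither past the exact test.

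With each animal's deviation from its group mean taken over all 16 animals, the r of P4hb was 0.37 with Xbp1 (permutation p = 0.209, adjusted over 6 pairs 0.556), -0.28 with Serpinh1 (p = 0.278, adjusted 0.556) and -0.11 with P3h3 (p = 0.650, adjusted 0.780), by permutation within groups. The matching rho was 0.49, -0.12 and -0.060. Without the 2 animals farthest from their group's mean of P4hb, r was 0.51, -0.19 and 0.015. With each sample centred on its own median, the r of P4hb with Xbp1 was 0.58 (permutation p = 0.0516, adjusted 0.202), and the sign of the r with Serpinh1 turned, to 0.079.

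The question of which gene P4hb varies with was tested on the difference itself. As the mean of the group values, the r of P4hb with Serpinh1 minus its r with Xbp1 was -0.57 (exact sign-flip permutation p = 0.0991, adjusted over 6 tests 0.282), and 5 of 16 animals contributed in the direction of Serpinh1. The r with P3h3 minus the r with Xbp1 was -0.43 (exact sign-flip permutation p = 0.188, adjusted 0.282), with 7 of 16 animals in the direction of P3h3. In EVT0185 livers the differences were -0.20 for Serpinh1 (exact sign-flip p = 0.648, adjusted 0.778) and -0.078 for P3h3 (p = 0.844, adjusted 0.844), and in Vehicle livers -0.94 for Serpinh1 (p = 0.102, adjusted 0.282) and -0.78 for P3h3 (p = 0.148, adjusted 0.282). All 6 differences pointed to Xbp1 and none passed the threshold, and the smallest p that 8 animals can give is 0.0078. The 6 share the P4hb and Xbp1 values, and those over 16 animals are means of the group values, so their directions are not independent. These 16 livers therefore did not separate the choices.

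On the deposited scale Serpinh1 and P3h3 had the highest r of the 6 pairs, while with median centring P4hb and Xbp1 had (0.58 against 0.48). Over 16 animals the group-centred r of Serpinh1 with P3h3 was 0.57 (permutation p = 0.0302, adjusted over 6 pairs 0.181, rho 0.61 with p = 0.0196), and 0.52 without the 2 animals farthest from their group's mean of P3h3. It was 0.50 in EVT0185 livers (exact permutation p = 0.226, rho 0.50) and 0.73 in Vehicle livers (exact permutation p = 0.0399, adjusted over 12 relations 0.478, rho 0.71). Quantile normalization gave 0.25. Serpinh1 and Xbp1 had an r of -0.18 and P3h3 and Xbp1 one of 0.074 (n = 16).

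Set against all other tested genes, neither collagen gene nor Xbp1 was among those most like P4hb. Likeness was the group-centred Pearson r over the 16 animals, given as a description. Of 611 genes ranked from the highest r with P4hb, Xbp1 stood at 64, P3h3 at 291 and Serpinh1 at 430 on the deposited scale. With median centring their places were 99, 403 and 360, and with quantile normalization 218, 355 and 565. On the deposited scale the median r was -0.13, and 80% of genes lay between -0.46 and 0.39. The top 3 were Sec61b, a subunit of the Sec61 channel that carries new proteins into the ER, and Ssr4 and Ssr2, subunits of the translocon-associated complex beside that channel.

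Sec61b had an r of 0.80 with P4hb over both groups, 0.75 in EVT0185 and 0.81 in Vehicle livers. Ssr2 had 0.71, with 0.74 in EVT0185 and 0.70 in Vehicle livers. Ssr4 had 0.77, with 0.32 in EVT0185 and 0.85 in Vehicle livers, and the difference between its group slopes was not past the test (limma adjusted p = 0.988). Leaving out any 1 animal left r at 0.77 to 0.87 for Sec61b, 0.67 to 0.83 for Ssr4 and 0.66 to 0.75 for Ssr2. Next came Nr1h3, the lipid sensor LXR-alpha, at 0.70, and Saa1/2, acute phase proteins that share 1 probe, at 0.68, both of them near 0 in EVT0185 livers (0.00 and -0.043) and at 0.85 and 0.86 in Vehicle livers. The lowest were Hadha, a subunit of the mitochondrial trifunctional protein of fatty acid oxidation, at -0.75, and Capn5, a calpain protease, at -0.70. Hadha had -0.17 in EVT0185 and -0.84 in Vehicle livers, and Capn5 -0.25 in EVT0185 and -0.86 in Vehicle livers. With median centring r was -0.043 for Hadha and -0.40 for Capn5, and with quantile normalization -0.15 and -0.24.

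The likeness of P4hb to the translocon genes varied with the scaling of the samples. With median centring r was 0.92 for Sec61b, 0.92 for Ssr4 and 0.89 for Ssr2, and with quantile normalization 0.29, 0.10 and 0.30. In the limma fit of every tested gene on the P4hb level, with group as a term, 0 of 611 genes (0%) passed an adjusted p of 0.05, and 69 had an unadjusted p under 0.05. The slope of Sec61b on P4hb was 0.98 (SE 0.25, limma adjusted p = 0.158) and that of Ssr4 0.89 (SE 0.26, limma adjusted p = 0.158). With median centring 73 of 611 genes (11.9%) passed. The slopes of Xbp1 (0.58, SE 0.40, limma adjusted p = 0.550), Serpinh1 (-0.58, SE 0.53, limma adjusted p = 0.674) and P3h3 (-0.26, SE 0.66, limma adjusted p = 0.881) were within their errors. No gene had a slope on P4hb that differed between the groups past the threshold (0 of 611, 15 at an unadjusted p under 0.05).

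**Figure D3:**
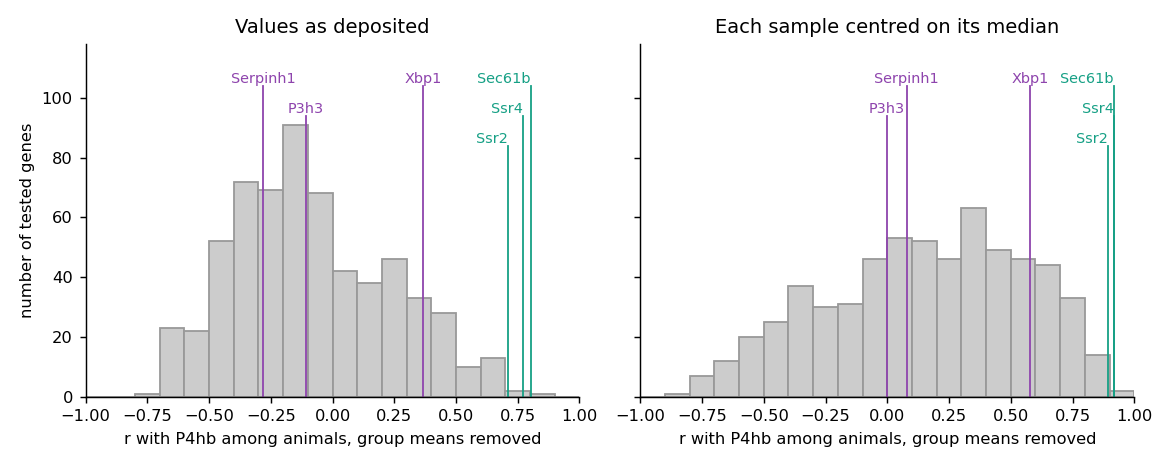
Histograms of the group-centred Pearson r with P4hb over 16 livers (x axis) for 611 tested genes (y axis, number of genes), on the deposited scale and with each sample centred on its median. Sec61b, Ssr4 and Ssr2 lie at the upper end in both, at 0.71 to 0.80 and 0.89 to 0.92, while Xbp1 lies at 0.37 and 0.58 and Serpinh1 and P3h3 near or below 0.

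In the treatment contrast, which did not choose them, Sec61b was lower in EVT0185 livers by a log2 difference of -0.35 (SE 0.080, limma adjusted p = 0.00296) and Ssr4 by one of -0.32 (SE 0.078, limma adjusted p = 0.00494). Ssr2 had a difference of -0.17 (SE 0.072, limma adjusted p = 0.0723). With median centring neither Sec61b (limma adjusted p = 0.0915) nor Ssr4 (limma adjusted p = 0.154) was called.

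The 3 genes most like Serpinh1 were Vim, an intermediate filament protein of mesenchymal cells (r = 0.87), Ccn2, a matricellular protein induced by TGF-beta and YAP (0.84), and Mmp2, a gelatinase of stellate cells (0.83). In the fit on the Serpinh1 level 12 of 611 genes (1.96%) passed, all with a positive slope. They were Vim, Ccn2, Mmp2, the collagens Col1a1, Col1a2, Col3a1 and Col6a3, the receptor Pdgfrb, Reln, Timp2, the transcription factor Snai2 and the chemokine Cxcl16. Their names beyond the first 3 and the 3 fibrillar collagens were given after their values were seen.

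The slope on Serpinh1 was 0.85 for Vim (SE 0.15, limma adjusted p = 0.00726), 1.32 for Ccn2 (SE 0.24, limma adjusted p = 0.00726) and 1.95 for Mmp2 (SE 0.35, limma adjusted p = 0.00726), each a log2 change per log2 unit of Serpinh1. Among the collagens Col3a1 had a slope of 1.40 (SE 0.29, limma adjusted p = 0.0172), Col1a2 1.23 (SE 0.27, limma adjusted p = 0.0286) and Col1a1 1.82 (SE 0.45, limma adjusted p = 0.0438). Vim and Ccn2 were called under both other scalings, where the totals were 2 and 4 genes. The number called was 0 without Vehicle replicate 8, 1 without EVT0185 replicate 7, 5 without EVT0185 replicate 3 or 6, 6 without Vehicle replicate 4 and up to 15 without another animal. With replicate number as a further term in the fit it was 0, so Vim and Ccn2 were not called there. The sums of the stellate cell markers given above moved in the same direction between groups, and their part in these slopes was not tested. Those markers include Vim, Pdgfrb, Reln, Col1a1, Col1a2 and Col3a1, which are themselves among the 12 genes called on Serpinh1.

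Among the genes most similar to P3h3 were C1s1, a complement protease (r = 0.80), and Col14a1, a fibril-associated collagen (0.79). Its slope fit called 5 of 611 genes (0.818%), among them C1s1, Col14a1, the antigen presentation gene H2-DMb1 and the apolipoprotein Apoa4, each with a limma adjusted p of 0.0446. With median centring, and with quantile normalization, none of the 5 passed. The number called was 0 without any 1 of 13 animals, 5 without Vehicle replicate 5, 11 without EVT0185 replicate 4 and 15 without Vehicle replicate 6. With replicate number as a further term it was 0.

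The 3 genes most similar to Xbp1 were Igf1, a growth factor secreted by the liver (r = 0.83), Cfi, complement factor I (0.82), and Fpr1, a formyl peptide receptor of myeloid cells (0.81). The fit on the Xbp1 level called 8 of 611 genes (1.31%). The slopes were 1.57 for Igf1 (SE 0.28, limma adjusted p = 0.0172), 2.18 for Fpr1 (SE 0.43, limma adjusted p = 0.0250), 0.77 for Cfi (SE 0.17, limma adjusted p = 0.0387) and 1.58 for C9, a terminal complement component (SE 0.38, limma adjusted p = 0.0472). The others were Cyp27a1, Cfhr2 and Ifi27, with positive slopes, and the hormone Fgf21, with a negative slope of -1.87 (SE 0.44, limma adjusted p = 0.0472). These were named after their values were seen.

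With median centring 6 of those 8 genes were called among 33, and with quantile normalization 1 of them, Fpr1, among 5. The number called was 0 without Vehicle replicate 1 or 3, 3 without EVT0185 replicate 5, 4 without Vehicle replicate 2 or EVT0185 replicate 4 or 7, 5 without Vehicle replicate 5 and 30 without Vehicle replicate 7. With replicate number as a further term it was 1. The macrophage markers had a median r of 0.49 with Xbp1 (4 of 5 positive, highest for Cd68 at 0.67), and the hepatocyte markers one of 0.30 (3 of 3 positive). The B and plasma cell markers, a cell type in which Xbp1 is abundant, summed to 64.1 to 97.7 normalised counts over 4 genes in EVT0185 livers, against 54.2 to 98.6 in Vehicle livers, and none of the 2 tested was called. The part of these cells in the Xbp1 results was not tested.

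Lists of genes written for each pathway divided between the 4 genes. Of 9 tested collagens, all 9 had a positive r with Serpinh1 (median 0.71, range 0.27 to 0.78) and with P3h3 (median 0.58), while all 9 had a negative r with P4hb (median -0.42, range -0.69 to -0.21) and 7 of 9 with Xbp1 (median -0.30). The median over all tested genes was 0.080 with Serpinh1, 0.19 with P3h3, -0.13 with P4hb and 0.16 with Xbp1. With quantile normalization 7 of 9 collagens were negative with P4hb and 7 of 9 positive with P3h3, and with median centring the signs of these lists stood as given except that all 9 were negative with Xbp1, as they were with quantile normalization. For P4hb the median was -0.30 with median centring and -0.26 with quantile normalization. In the slope fits on the deposited scale 4 of the 9 collagens were called on Serpinh1, Col14a1 on P3h3 and none on P4hb or Xbp1. With median centring 0 were called on Serpinh1, and with quantile normalization 2. Under each of these other scalings 1 collagen was called on Xbp1, with a negative slope, and none on P4hb or P3h3.

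The 14 tested plasma proteins that hepatocytes secrete, of the fibrinogen, complement and kinin families, ran the other way. All 14 had a positive r with Xbp1 (median 0.63, range 0.19 to 0.82) and 12 of 14 with P4hb (median 0.45, range -0.35 to 0.68), while 1 of 14 was positive with Serpinh1 (median -0.41) and 3 of 14 with P3h3 (median -0.26). In both cases C1s1 was a positive one, at 0.46 with Serpinh1 and 0.80 with P3h3. Among those nearest to P4hb were Fgg, the fibrinogen gamma chain, at 0.68, and Serping1, the C1 inhibitor, at 0.65. With median centring 13 of 14 were positive with P4hb and 13 of 14 with Xbp1, and with quantile normalization 10 and 13. On the deposited scale only C9 and Cfi were called in the slope fit on Xbp1 and none in that on P4hb. With median centring 5 of 14 were called on Xbp1 and 2 on P4hb, and with quantile normalization none on either. The genes of a list share the same 16 livers and their scale, so these counts describe the livers and are not independent tests.

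The list of ER folding and unfolded protein response genes, of which 10 were tested, had a median r of 0.0067 with P4hb, 0.21 with Xbp1, -0.070 with Serpinh1 and 0.17 with P3h3. The genes tested were Derl1, Sec61b, Ern1, Atf4, Ddit3, Ero1l, Mbtps2, Traf2, Bax and Casp12, and Bax had the lowest r with P4hb (-0.51). These medians describe the list as written, which does not hold every ER gene of the panel: Ssr4 and Ssr2 are not in it. Others outside it went both ways with P4hb. Selenos and Creb3 (r of 0.61 each), Sil1 (0.52), Erp29 (0.41) and Txndc5 (0.32) were positive, while Bcap31 (-0.094), Derl2 (-0.26) and Ckap4 (-0.45) were negative. Those were named after their values were seen. Within the list Sec61b was the highest for both P4hb (0.80) and Xbp1 (0.63), and Ern1, the sensor that splices Xbp1 mRNA, had an r of 0.59 with Xbp1 and -0.14 with P4hb. The stress factors Atf4 and Ddit3 had 0.23 and -0.12 with P4hb. The 7 lipoprotein genes had a median r of -0.057 with P4hb, and Apob, whose assembly uses P4hb in the transfer protein, one of -0.15. Both list medians with P4hb varied with the scaling. With median centring that of the lipoprotein genes was 0.33 (6 of 7 positive, Apob at 0.18) and that of the ER list 0.19. With quantile normalization they were -0.028 and 0.079. Mttp, the partner of P4hb in the transfer protein, and the ER chaperone Hspa5 had no values in the data used here and were not analysed.

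**Figure D4:**
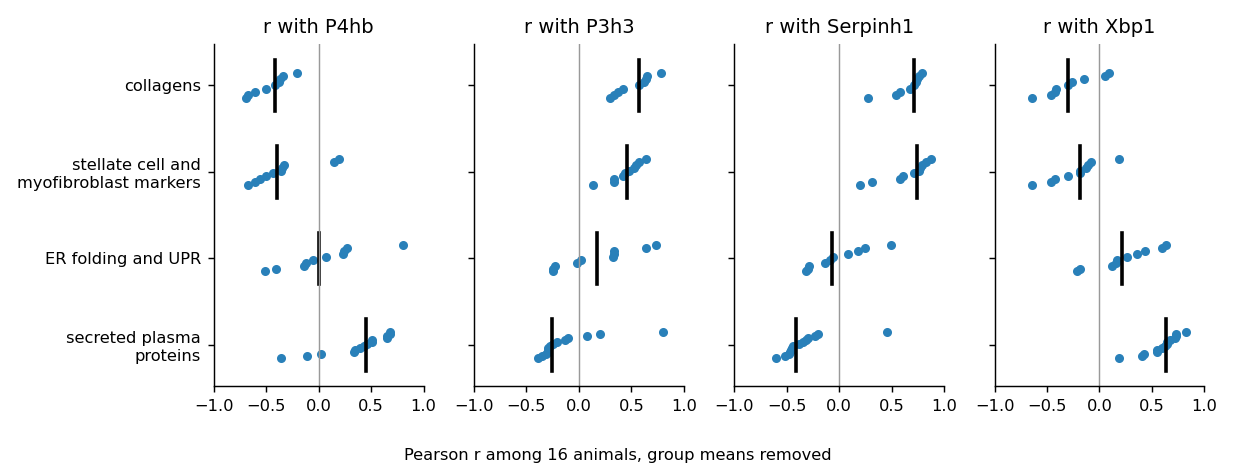
Group-centred Pearson r over 16 livers (x axes) of P4hb, P3h3, Serpinh1 and Xbp1 with the tested collagens, stellate cell markers, ER and unfolded protein response genes and secreted plasma proteins, 1 point per gene with a bar at the list's median. Collagens lie above 0 with Serpinh1 (median 0.71) and P3h3 (0.58) and below 0 with P4hb (-0.42), and secreted plasma proteins lie above 0 with Xbp1 (0.63) and mostly with P4hb (0.45). Col1a1, Col1a2 and Col3a1 are in both the collagen and the stellate cell lists.

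The treatment contrast of the lists puts the 4 genes beside their pathways. Of 9 tested collagens (13 on the panel) 5 were lower in EVT0185 livers and none higher, against 32.7% of all genes called, with a median log2 difference of -0.46 against -0.10 over all tested genes. Those called were Col1a1 (-0.95, SE 0.30, limma adjusted p = 0.0213), Col6a3 (-0.92, SE 0.19, limma adjusted p = 0.00138), Col1a2 (-0.85, SE 0.19, limma adjusted p = 0.00295), Col3a1 (-0.72, SE 0.21, limma adjusted p = 0.0137) and Col5a1 (-0.46, SE 0.16, limma adjusted p = 0.0405). With median centring, and with quantile normalization, 4 of the 9 were called, without Col5a1. Of the other enzymes that process or cross-link collagen, 4 are on the panel and 2 were tested. Loxl2, a lysyl oxidase, was lower (-0.42, SE 0.14, limma adjusted p = 0.0281), though not with median centring or quantile normalization, and Loxl1 was at -0.62 (SE 0.29, limma adjusted p = 0.106).

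Of the 10 ER and unfolded protein response genes 3 were lower and none higher, against 21.6% lower and 11.1% higher among all tested genes, and the list's median difference of -0.12 was near that of all genes. With median centring 2 were lower and 1 higher, and with quantile normalization 3 were lower and 1 higher. Besides Sec61b, the genes called lower on the deposited scale were Ern1, at -0.49 (SE 0.14, limma adjusted p = 0.0153), and Casp12, an ER-linked caspase, at -0.53 (SE 0.15, limma adjusted p = 0.0132). Atf4 (-0.085, SE 0.089, limma adjusted p = 0.515) and Ddit3 (0.11, SE 0.11, limma adjusted p = 0.516), transcription factors of the stress branch that slows translation, were not called, nor was the oxidase Ero1l, which recharges disulfide isomerases (0.061, SE 0.078, limma adjusted p = 0.594).

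Among the secreted cargoes, 10 of 14 plasma proteins were lower in EVT0185 livers and none higher (median -0.51), against 21.6% lower among all tested genes (median -0.10). The largest difference in that list was C9 (-1.57, SE 0.20, limma adjusted p = 1.28e-05), and C1s1 was at -0.93 (SE 0.15, limma adjusted p = 0.000137) and Cfi at -0.55 (SE 0.093, limma adjusted p = 0.000203). Of 7 lipoprotein genes 6 were lower (median -0.64), led by Apoa4, a chylomicron and lipoprotein component (-4.32, SE 0.45, limma adjusted p = 1.54e-06), Apoc2 (-1.22, SE 0.16, limma adjusted p = 1.49e-05) and Apoa1 (-1.04, SE 0.12, limma adjusted p = 6.25e-06). With median centring 7 plasma proteins and 4 lipoprotein genes were called lower, against 84 of all 612 tested genes.

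**Figure D5:**
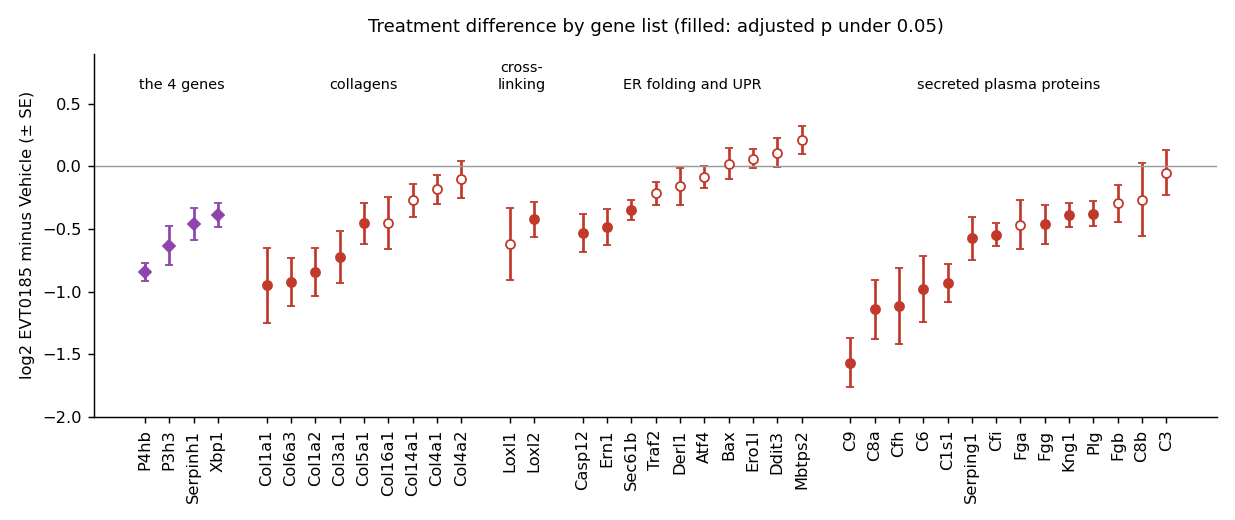
Log2 difference, EVT0185 minus Vehicle, with its SE (y axis) for each tested collagen, crosslinking, ER and secreted plasma protein gene, filled where limma's adjusted p was under 0.05, and for P4hb, P3h3, Serpinh1 and Xbp1 as diamonds, which carry no test here. The 4 genes lie between -0.84 and -0.39 and the 5 collagens called lower between -0.95 and -0.46. The 10 listed ER and unfolded protein response genes, which include Bax, Traf2, Casp12 and Mbtps2, have a median of -0.12.

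Measures of the samples themselves were set against the 4 genes. The group-centred r with the log2 total count was -0.56 for P4hb (permutation p = 0.0281, adjusted over 8 relations 0.123, rho -0.36) and 0.55 for P3h3 (permutation p = 0.0307, adjusted 0.123, rho 0.60) over 16 animals. Without the 2 samples farthest from their group's mean total, the first was -0.22 and the second 0.50. For Serpinh1 it was 0.32 and for Xbp1 0.0039. With the median level of all tested genes, P4hb had -0.33, P3h3 0.48, Serpinh1 0.30 and Xbp1 0.30, with no adjusted p below 0.184.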

How the data were processed

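Liver RNA of 8 EVT0185 and 8 Vehicle mice was measured. The authors scaled their counts with nSolver 4.0 to a global geometric mean, according to the series' design text, and deposited them as log2 values. In every sample 100% of the values, taken back from log2, were whole multiples of 1 step within 0.1 of a count, and these gave the recovered counts and totals (1462994 to 1850800). No genome build is named, and the deposited table's gene names were used. The smallest chi-square per degree of freedom among the 56 pairs of samples of a group was 10.8, so none was a copy of another.

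The 612 genes with a mean normalised count of at least 20 were tested with limma 3.58.1 (R 4.3.3) on the deposited log2 values with group as the term, and again with the level of P4hb, P3h3, Serpinh1 or Xbp1 as a second term. The test on a level uses values of the same livers on both sides, so an error of scaling enters both. All p-values are two-sided, adjusted by Benjamini-Hochberg and held against 0.05. Correlations within groups used exact permutation, group-centred ones 100000 permutations within groups, and differences of r exact sign flips of animals (Python 3.11.15, scipy 1.17.1).

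Genes are named by a rule: the 4 members, the 5 highest and 2 lowest in r with P4hb, the 3 highest with each other member, the 3 smallest p of each pathway list, and Mttp, Hspa5, Atf4, Ddit3, Ern1, Col1a1, Col1a2 and Col3a1. Some results under this rule are not reported here. The members, lists and tests were chosen with earlier results of these data known. Alternatives were median centring, quantile normalization, other floors, a pseudocount, a replicate block and leaving out each animal. On simulated data the fits recovered most of the larger changes they were made with. Relative to each gene's SD, the simulated slopes on P4hb were steeper than those seen for Xbp1, Serpinh1 and P3h3. Recovery of slopes as weak as these was not simulated. Each gene had its own noise in the simulated data, so an error of scaling shared by all genes was not simulated. The labels do not say whether the replicate numbers pair the samples. Same-numbered animals deviated together with r of -0.14 to 0.46, over 0.1 in 5 of 8 pairs, which does not exclude a pairing or a shared batch.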

Additional observations from a re-analysis of the deposited data

Results flagged for a closer look

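In 68 groups of 8 animals (34 named genes in both treatments) the gap between the extreme animal and its nearest neighbour was compared with the range of the group, and 5 exceeded Dixon's critical value for that ratio. Chance alone flags about 1 in 20 such groups. Vehicle replicate 8 was the highest of its group for 2 genes of the matrix programme, Ccn2, at a log2 level of 8.28 against 7.35 to 7.74 in the other 7, and Col1a2, at 8.85 against 7.40 to 8.09. The same animal had the highest Serpinh1 level of its group, and without it the fit on Serpinh1 called 0 genes. EVT0185 replicate 3 was the lowest of its group for Mmp2, at 3.05 against 4.38 to 5.23, and also for Serpinh1. EVT0185 replicate 8 was the lowest for the translocon gene Ssr4, at 9.63 against 9.76 to 9.86. EVT0185 replicate 4 was the highest for the stress factor Ddit3, at 7.55 against 6.62 to 7.02, and also for Xbp1. None of the 4 genes P4hb, P3h3, Serpinh1 and Xbp1 had such an animal in either group.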

How the results depend on the processing

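The log2 differences of the 4 genes kept their sign under every alternative run. They were -0.75 (P4hb), -0.54 (P3h3), -0.36 (Serpinh1) and -0.29 (Xbp1) with median centring, and -0.97, -0.46, -0.37 and -0.29 with quantile normalization. The count of treatment calls was 170 to 236 without 1 animal, 190 with the replicate block, 180 with median centring (96 higher, 84 lower) and 195 with quantile normalization (106 higher, 89 lower), against 200 (68 higher, 132 lower). Calls on P4hb were 73 with median centring and 0 to 7 without 1 animal (1 without EVT0185 replicate 3, 7 without EVT0185 replicate 6). Calls on P3h3 were 0 with median centring, quantile normalization, a pseudocount of 20 or the replicate block, and 0 to 15 without 1 animal. Calls on Serpinh1 were 2, 4 and 0 with median centring, quantile normalization and the replicate block, and 0 to 15 without 1 animal. Calls on Xbp1 were 33, 5, 3 and 1 with median centring, quantile normalization, no floor and the replicate block, and 0 to 30 without 1 animal. The fits on P3h3, Serpinh1 and Xbp1 and their alternatives were added after seeing the data. In EVT0185 livers the r of P4hb turned sign with Serpinh1 (-0.084 with median centring, -0.13 with quantile normalization, -0.32 to 0.51 without 1 animal), with P3h3 (-0.43, -0.13, -0.21 to 0.43) and with Xbp1 (-0.078 with quantile normalization). In Vehicle livers it turned with Serpinh1 (0.16 with median centring) and P3h3 (0.24 and 0.023), and over both groups with Serpinh1 (0.079 with median centring). Of 164 alternative values of 11 correlation results none passed, with a smallest adjusted p of 0.135. With the replicate block the r of P4hb was 0.19 with Xbp1, -0.11 with Serpinh1 and -0.037 with P3h3. Whether the numbers pair the animals is not given, and 1 of 8 EVT0185 animals correlated best with the Vehicle animal of its own number. The crosslinking list had 0 calls with median centring, quantile normalization or a floor of 100, and 0 to 2 without 1 animal. P3h3 lies below that floor and has no value there. The cause of these changes was not tested. Counting error limits P3h3 most.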

Other observations

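Among genes named here after their values were seen, Xbp1 had its second lowest r with Col1a1, the type I collagen chain, at -0.65 over 16 livers (-0.34 in EVT0185 and -0.83 in Vehicle livers), and at -0.78 with median centring and -0.79 with quantile normalization. The genes that varied most against Serpinh1 were Oas1a/g, interferon-induced oligoadenylate synthetases that share 1 probe, at -0.74 (-0.71 in EVT0185 and -0.78 in Vehicle livers), and Bst2, an interferon-induced antiviral membrane protein, at -0.61 (-0.78 in EVT0185 and -0.42 in Vehicle livers). Both were below 0 with median centring, at -0.38 and -0.54. P3h3 had an r of 0.76 with Kdr, the VEGF receptor of endothelial cells (0.73 in EVT0185 and 0.81 in Vehicle livers), 0.67 with median centring and 0.58 with quantile normalization. Of the 6 endothelial markers, all 6 had a positive r with P3h3 (median 0.37) and with Serpinh1 (median 0.36) and none with P4hb (median -0.40). With median centring 5, 5 and 3 of the 6 were positive with P3h3, Serpinh1 and P4hb. These values are descriptions with no test.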
